A study of Homo sapiens with 8 samples.

Results

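The regions described here are 5343 of the 50523 merged regions of histone H3 trimethylated at lysine 4 (H3K4me3) in MM1S cells. Each was called in all 5 of the longer lists (DMSO 3, DMSO 4, DMSO 5, KDM5-C70 2 and KDM5-C70 3) and in none of the 3 shorter lists (DMSO 1, DMSO 2 and KDM5-C70 1), and each lies more than 2000 bp from any region called in all 8. A merged region is the union of called regions that overlap by at least 1 bp, on chromosomes 1 to 22 and X. These 5343 make up 10.6% of all merged regions and 23.7% of the 22537 called in all 5 longer lists. The members were chosen by the calls of the 8 libraries, so their absence from the shorter lists is given as a description only.

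MM1S is an established human multiple myeloma line. All 8 chromatin immunoprecipitation sequencing (ChIP-seq) libraries came from this line and 1 antibody lot. DMSO, the vehicle, was used for 5 of them, with no time stated, and KDM5-C70 at 50 uM for 7 days was used for the other 3. The labels do not say whether replicates are separate cultures, so p-values measure only the spread between these libraries, which may be technical. The longer lists held 28195 to 37948 regions and the shorter lists 15323 to 20998. Within the longer lists, DMSO 3 had 32376, DMSO 4 had 30363, DMSO 5 had 28195, KDM5-C70 2 had 32133 and KDM5-C70 3 had 37948. The depth of the libraries is unknown, so absence from a list means only that no call was made.

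H3K4me3 is deposited by the SET1 and MLL methyltransferases and is found mainly on nucleosomes around active and poised promoters, with lower levels at some enhancers. The KDM5 demethylases remove it, and KDM5-C70 inhibits them. The lists hold broad regions with stronger blocks inside them. These blocks are called inner segments here, and the inner share is the percentage of called bases that lie in them. The gene table used here is of another genome build, so regions are named by their position on GRCh37, and no gene, promoter or sequence was assigned to them.

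The members were narrow. In DMSO 3 the median called width was 654 bp (quartiles 451 and 883 bp), in DMSO 4 530 bp (353 and 728 bp) and in DMSO 5 520 bp (334 and 721 bp). In KDM5-C70 2 the median was 665 bp (427 and 945 bp) and in KDM5-C70 3 it was 759 bp (533 and 1056 bp). Regions called in all 8 were wider in the same libraries, with medians from 1355 bp in DMSO 4 to 1581 bp in KDM5-C70 3. Averaged over the 5 libraries, a member covered 633 bp at the median and 157 to 2357 bp in all, and only 57 of the 5343 (1.07%) exceeded the median of 1478 bp of regions called in all 8. In 79 members (1.48%) the called width was above 1000 bp in all 5 libraries. No list held a region under 146 bp, and 540 members (10.1%) were at that floor in at least 1 library. Members held 14.4 to 19.1% of the regions of each longer list, or 3.01 to 4.39 Mb.

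**Figure D1:**
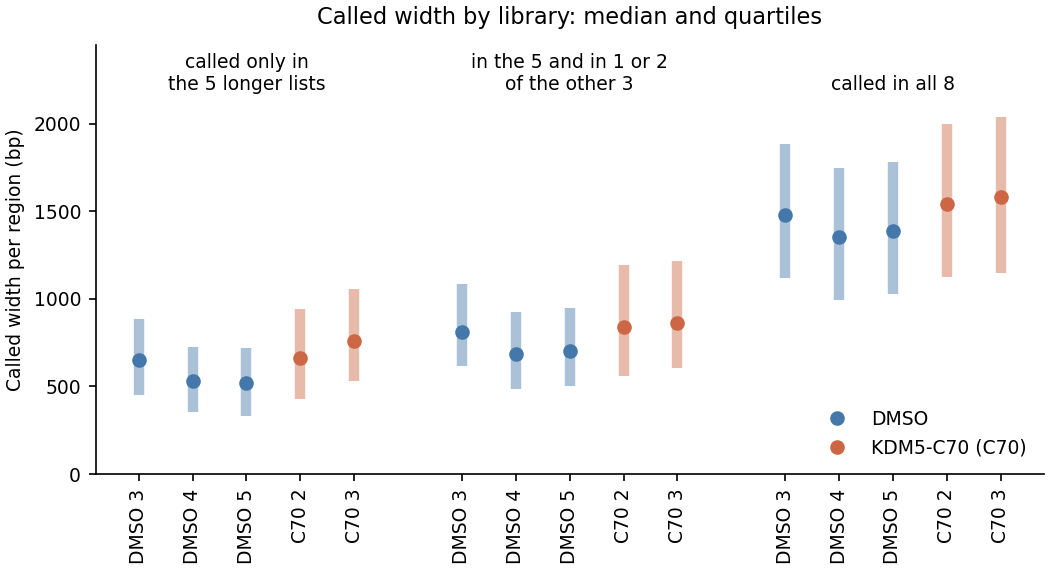
Called width per region (bp) in each of the 5 longer lists for 3 groups of regions; points are medians over regions, bars run from the lower to the upper quartile, and colours mark DMSO and KDM5-C70. Medians of the regions called only in the 5 lists lie between 520 and 759 bp, and those of regions called in all 8 between 1355 and 1581 bp.

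Regions called in the 5 longer lists and in 1 or 2 of the shorter ones, again more than 2000 bp away from regions called in all 8, lay in between. There were 3395 of them, with median widths of 687 to 865 bp. Of the 22191 regions called in all 5 and more than 2000 bp away from the next region called in all 8, DMSO 1 had 73.6%, KDM5-C70 1 had 68.4% and DMSO 2 had 61.9%, in the order of their list lengths of 20998, 17977 and 15323. Of the shorter lists, DMSO 1 alone had 1423 of these regions, KDM5-C70 1 alone 456 and DMSO 2 alone 27.

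Width and inner share were lower in members than in regions called in all 8. Both groups were chosen by calls in the shorter lists, so such contrasts describe them and do not test the label "weak". The authors' deposited values per region were also lower than in regions called in all 8, in all 5 libraries, though the fold enrichments were close. Where a library had several intervals in a merged region, the highest value was taken. That applied to 0.84 to 2.40% of members and 1.17 to 5.59% of regions called in all 8, depending on the library. The median deposited fold enrichment of members was 2.74 in DMSO 3, 2.77 in DMSO 4, 2.68 in DMSO 5, 2.40 in KDM5-C70 2 and 2.36 in KDM5-C70 3. For regions called in all 8 the same medians were 2.93, 2.99, 2.93, 2.52 and 2.46. Regions also called in 1 or 2 shorter lists lay between, at 2.82, 2.83, 2.76, 2.43 and 2.37. The median deposited -log10 q-value of members was 5.97, 4.76, 5.81, 2.57 and 1.92 in the same order of libraries, against 7.02, 5.63, 6.87, 3.05 and 2.23. These values are the authors' own, and they hardly followed the same region from 1 library to the next. Across members, Spearman's rho of the fold enrichment between libraries was 0.024 to 0.13 over the 10 pairs of the 5 libraries, a description across regions that share the libraries. Across regions called in all 8 it was also low, at 0.11 to 0.29.

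Inner segments were less extensive in the members than in regions called in all 8. They took 63.8% of the members' called bases in DMSO 3, 43.3% in DMSO 4, 43.2% in DMSO 5, 37.8% in KDM5-C70 2 and 46.1% in KDM5-C70 3. In regions called in all 8 the inner share was 83.5, 79.6, 81.6, 69.8 and 65.1% in the same order. An inner segment was present in 5144 members (96.3%) in DMSO 3, 3980 (74.5%) in DMSO 4, 3835 (71.8%) in DMSO 5, 4028 (75.4%) in KDM5-C70 2 and 4857 (90.9%) in KDM5-C70 3. Regions called in all 8 had one in at least 99.4% of cases. All 5 libraries had an inner segment in 2497 members (46.7%), 4 of them in 1431, 3 in 904, 2 in 414, 1 in 95 and none in 2, whereas 13585 (99.0%) of the regions called in all 8 had one in every library. Where an inner segment was present, the median inner length of a member was 442, 297, 297, 318 and 384 bp in DMSO 3, 4 and 5 and KDM5-C70 2 and 3.

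At like width the members still had less of their called bases in inner segments. Among regions with a mean width of 500 to 700 bp, 1768 members had an inner share of 66.4, 44.6 and 43.2% in DMSO 3, 4 and 5 and of 40.2 and 50.3% in KDM5-C70 2 and 3. The 507 regions of that width called in all 8 had 88.9, 85.3 and 85.7%, and 74.4 and 75.4%. At 900 to 1200 bp, 733 members had 57.2, 42.2 and 43.7%, and 34.5 and 40.2%, while 2384 regions called in all 8 had 88.7, 86.0 and 87.0%, and 77.3 and 75.5%. Members thus lay below regions of like width in every one of the 5 libraries in both bands.

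By treatment, the inner share of the members overlapped. It averaged 50.1 ± 11.9% (SD, n = 3) in the DMSO libraries and 41.9% in the KDM5-C70 libraries (n = 2, at 37.8 and 46.1%), a difference of -8.16 percentage points. KDM5-C70 3 lay above DMSO 4 and DMSO 5, and without DMSO 3, with members chosen anew, the difference was -0.83 percentage points. The groups did not overlap in regions called in all 8, KDM5-C70 2 and 3 lying below all 3 DMSO libraries, nor in the 3395 regions also called in 1 or 2 shorter lists, with 74.5, 63.5 and 65.9% in DMSO 3, 4 and 5 and 51.6 and 54.3% in KDM5-C70 2 and 3. Whether the treatment difference itself differs between these groups of regions was not tested.

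**Figure D2:**
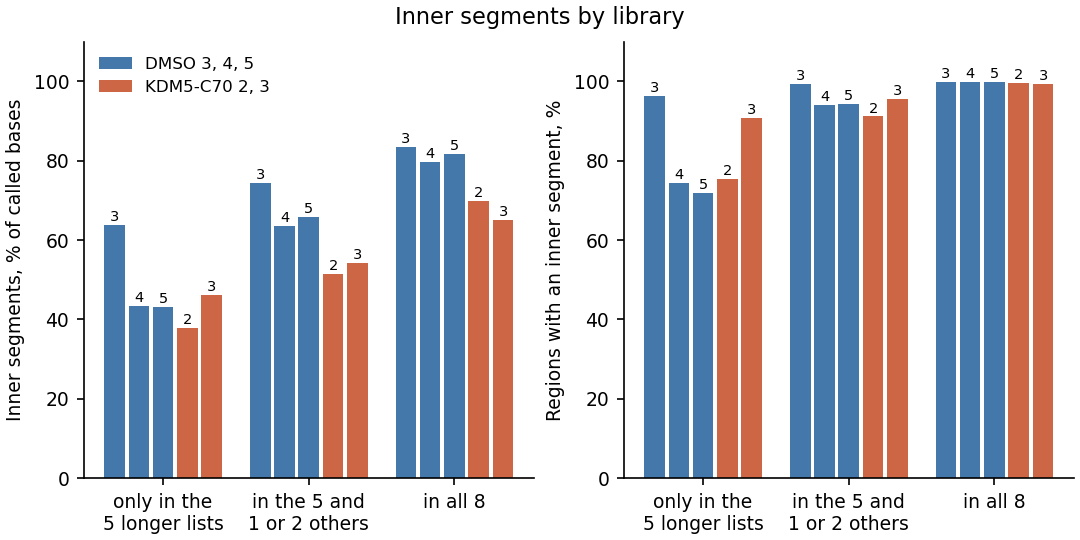
Inner segments in each of the 5 longer lists (digits above bars are replicate numbers, colours the treatment) as a percentage of called bases (left) and as the percentage of regions with at least 1 inner segment (right). In regions called only in the 5 lists, KDM5-C70 3 at 46.1% lies above DMSO 4 and DMSO 5, while KDM5-C70 2 and 3 lie below all DMSO libraries in regions called in all 8.

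The share of members with an inner segment overlapped between treatments too. It averaged 80.8 ± 13.4% (SD, n = 3) with DMSO and 83.1% (n = 2, at 75.4 and 90.9%) with KDM5-C70. The difference of 2.30 percentage points turned to -0.338 without DMSO 4, -1.54 without DMSO 5 and -6.17 without KDM5-C70 3, and was 10.7 without DMSO 3. DMSO 3 and KDM5-C70 3, the lists with the most regions, were high, and DMSO 4, DMSO 5 and KDM5-C70 2 were low. In 2196 members both DMSO 3 and KDM5-C70 3 had an inner segment while at least 1 of the other 3 libraries had none, and in 230 they were the only ones to have it. An inner segment in all 3 DMSO libraries and in neither KDM5-C70 library was found in 71 of the 5343 members. The reverse, in both KDM5-C70 libraries and no DMSO library, was found in 32. Of the 13729 regions called in all 8, 6 and 0 had these patterns, but 99.0% of those had an inner segment in every library. KDM5-C70 2 was low with a list of 32133 regions, close to the 32376 of DMSO 3. That pair has like list lengths but differs in treatment, which cannot be told apart there from other differences between single libraries. A role of list length was not tested. With the 5 lists cut to 28195 regions each by keeping the widest, 3747 regions met the rule, and an inner segment was present in 96.6, 79.5 and 76.5% in DMSO 3, 4 and 5 and in 81.9 and 92.7% in KDM5-C70 2 and 3.

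The 5 libraries placed the members less alike than regions called in all 8. In 4604 members (86.2%) at least 1 base was called in all 5, with a median of 205 bp over all members, or 21.1% of the merged region. In the other 739 (13.8%) the 5 calls had no base in common, although they chained into 1 merged region. Of the regions called in all 8, 18 (0.13%) had no base common to the 5, and the median common part was 1150 bp, or 65.2%. A base lying in an inner segment of every library was found in 1650 members (30.9%) and in 97.9% of regions called in all 8.

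Pairs of libraries gave the same picture. The Jaccard index, which divides the bases shared by 2 lists by those in at least 1 of them, was 0.55 to 0.58 for the 3 DMSO pairs over the members, 0.54 for KDM5-C70 2 with 3, and 0.45 to 0.52 for the 6 pairs of different treatment. Over regions called in all 8 these were 0.86 to 0.88, 0.80 and 0.73 to 0.78. Pairs of different treatment were thus the lowest in both groups of regions. Spearman's rho of the called width lay between 0.36 and 0.48 over the 10 pairs for members and between 0.80 and 0.93 for regions called in all 8, across regions, which are not independent replicates. For members the highest rho, 0.48, was that of DMSO 3 with KDM5-C70 3, a pair of different treatment.

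**Figure D3:**
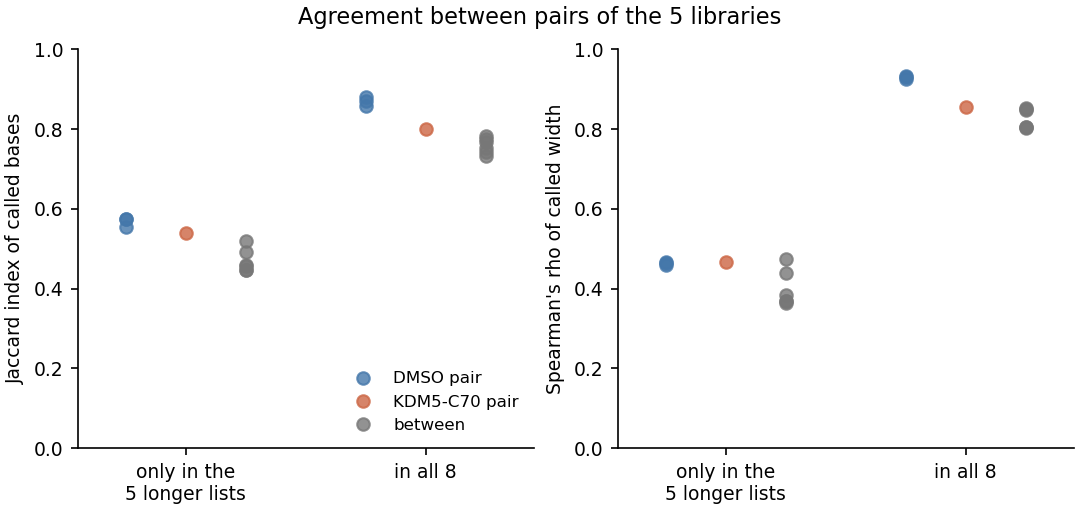
Agreement between pairs of the 5 libraries over regions called only in the 5 lists and over regions called in all 8: Jaccard index of called bases (left) and Spearman's rho of called width (right), 1 point per pair, coloured by whether the pair is DMSO, KDM5-C70 or between treatments. No pair reaches 0.6 in either measure for regions called only in the 5 lists, and all pairs exceed 0.7 for regions called in all 8.

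The median called width of the members was higher in both KDM5-C70 libraries, with DMSO 3 close to KDM5-C70 2. The median widths averaged 712 bp with KDM5-C70 (n = 2, at 665 and 759 bp) and 568 ± 74.6 bp (SD, n = 3) with DMSO, a difference of 144 bp. Both KDM5-C70 libraries lay above all 3 DMSO libraries. The 665 bp of KDM5-C70 2 and the 654 bp of DMSO 3 differed by less than the spread within DMSO, however. The difference was not particular to members. It was 154 bp in regions called in all 8 and 148 bp in all regions called in the 5, also without overlap. In regions also called in 1 or 2 shorter lists it was 120 bp, again without overlap. A like difference in bp is a larger log2 change in a narrower region, but the log2 changes also differed at like width. At a mean width of 500 to 700 bp, the median log2 change with KDM5-C70 was 0.36 in members and 0.02 in regions called in all 8. At 900 to 1200 bp it was 0.38 and 0.13. The reason for this was not tested. Relative to DMSO 5, the median log2 difference in width of the same member was 0.03 in DMSO 4, 0.28 in DMSO 3, 0.33 in KDM5-C70 2 and 0.53 in KDM5-C70 3. KDM5-C70 3 had the longest list and DMSO 5 the shortest of the 5. In the lists cut to equal length, the medians were 738, 595 and 576 bp in DMSO 3, 4 and 5 and 766 and 867 bp in KDM5-C70 2 and 3, a difference of 180 bp. The difference was 91.7 bp without KDM5-C70 3 and 57.9 bp where each library had to cover 50% of the merged region. Members above 1000 bp numbered 912, 425 and 428 in DMSO 3, 4 and 5 and 1128 and 1516 in KDM5-C70 2 and 3.

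In limma, which compared log2 called bases between KDM5-C70 2 and 3 and DMSO 3, 4 and 5 over all 22537 regions called in the 5, no member passed an adjusted p of 0.05. Of all regions tested 0% passed in either direction, and the smallest adjusted p, also among members, was 0.0617. Before adjustment, 841 members (15.7%) had a p under 0.05, 724 wider and 117 narrower, against 22.3% of all regions tested. The median log2 change was 0.34 over the members (quartiles -0.07 and 0.74) and 0.16 over all regions tested. It was above 0 in 3823 members (71.6%), and in 71.5% of all regions tested. When each library was centred on its median log2 width, the medians fell to 0.15 for members and -0.02 for all regions tested. Centring puts the median over all regions tested near 0 by construction and shifts the members by the same amount. Where each library had to cover 50% of the merged region, the order turned, with a median of 0.12 over 980 members and 0.14 over all 14539 regions tested. Some members passed in limma when other regions were tested, at lower shares than over all regions tested. Over the 20830 regions with a single interval in each library, 15 members were wider (0.298%, against 1.21% of all tested) and 4 narrower (0.0796%, against 0.139%). At 50% coverage, 8 were wider (0.816%, against 5.15%) and 1 narrower (0.102%, against 0.536%).

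Widths of both KDM5-C70 libraries exceeded all 3 DMSO widths in 1452 members (27.2%), where the share over all regions tested was 35.0%. They were below all 3 in 278 members (5.20%), against 7.61% of all regions tested. Both shares were below those over all regions tested, although the median log2 change of the members was larger on these widths. With each library centred, 1002 members (18.8%) were wider without overlap, against 16.3% of all regions tested, and 491 (9.19%) narrower, against 20.0%, so the order of the wider shares turned with the scaling. The spread was larger too, as the SD of log2 width among the 3 DMSO libraries had a median of 0.44 in members and 0.10 in regions called in all 8, and KDM5-C70 2 and 3 differed by a median of 0.49 and 0.17. The counts moved when single libraries were left out. Fewer libraries then had to separate and the members were chosen anew, and this was not told apart from the effect of the library left out. Without DMSO 3 there were 2313 wider members (40.6%, against 47.3% of all regions tested). Without DMSO 4 there were 522 narrower (8.83%, against 11.7%), and without DMSO 5 there were 579 (9.01%, against 10.5%). Without KDM5-C70 2, 3033 were wider (50.2%, against 53.7%) and 788 narrower (13.1%, against 17.1%). Without KDM5-C70 3, 2225 were wider (40.2%, against 48.2%) and 1089 narrower (19.7%, against 19.6%).

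Both ends lay further out with KDM5-C70 at the median. Over 5028 members with a single interval in each library, the left end lay a median of 63.8 bp and the right end 56.0 bp further out with KDM5-C70, close to the 56.3 and 58.7 bp of regions called in all 8. Inner length differed by a median of 14.5 bp in members and by -58.8 bp in regions called in all 8. Ends varied more between libraries in members, where the 5 left ends spanned a median of 376 bp, than in regions called in all 8, where they spanned 257 bp.

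Of the members with separate widths, the 4 with the smallest p were narrower with KDM5-C70. The region chr22:41612138-41614106 was 1681, 1558 and 1728 bp wide in DMSO 3, 4 and 5 and 424 and 328 bp in KDM5-C70 2 and 3. Its log2 change was -2.15 (SE 0.18, limma adjusted p = 0.0617). No base there was called in all 5 libraries.

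The region chr8:24151638-24153894 had 2199, 2218 and 1910 bp against 957 and 841 bp, a log2 change of -1.23 (SE 0.11). It lay 610832 bp from the nearest region called in all 8. The region chr13:41590736-41593412 had 2677, 2481 and 2055 bp against 881 and 675 bp. It had 1120, 452 and 604 bp of inner segments in the DMSO libraries and none in either KDM5-C70 library. The region chrX:81377888-81380639 had 2226, 2087 and 2276 bp against 872 and 591 bp.

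These 4 had the smallest p of the members with separate widths. With each library centred on its median they had a limma adjusted p of 0.0322 (chromosomes 22, 8 and 13) and 0.0446 (chromosome X). These were the members that passed with that scaling, 0.0749% of them, against 0.138% of all regions tested that were narrower. Centring moved the median over all regions tested by -0.19 (log2). The next 4 narrower regions were chr11:14995354-14997028, chr4:129739238-129740953, chr8:41121410-41122463 and chr1:156405461-156406232. The last had 663, 598 and 521 bp in DMSO 3, 4 and 5 against 146 and 153 bp in KDM5-C70 2 and 3, at or near the shortest width a list holds. Log2 changes of the 8 lay between -1.23 and -2.27, with limma adjusted p-values of 0.0617 to 0.0677.

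The other 8 members named for separate widths were wider with KDM5-C70. The region chr3:14782224-14783946 had 619, 567 and 696 bp in DMSO 3, 4 and 5 and 1708 and 1649 bp in KDM5-C70 2 and 3, a log2 change of 1.42 (SE 0.16, limma adjusted p = 0.0617). Its inner segments covered 619, 567 and 562 bp with DMSO and 1161 and 1041 bp with KDM5-C70, so there the stronger part was longer too. The region chr1:184526360-184527874 had 564, 550 and 523 bp against 1502 and 1376 bp, while its inner length of 217 bp in KDM5-C70 2 lay below all DMSO values (308 to 564 bp) and that of 747 bp in KDM5-C70 3 above them.

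The region chr11:116933638-116935821 had 685, 683 and 501 bp against 1690 and 2121 bp, and its inner segments were shorter, at 146 and 305 bp against 512, 447 and 441 bp. The region chr21:36237186-36239131 had 980, 904 and 985 bp against 1657 and 1753 bp. The others were chr17:78874066-78876470, chr8:130983578-130986253, chr1:143998171-144000619 and chr3:133223657-133226320. Log2 changes of the 8 ranged from 0.83 to 1.62, with limma adjusted p-values of 0.0617 to 0.0633.

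**Figure D4:**
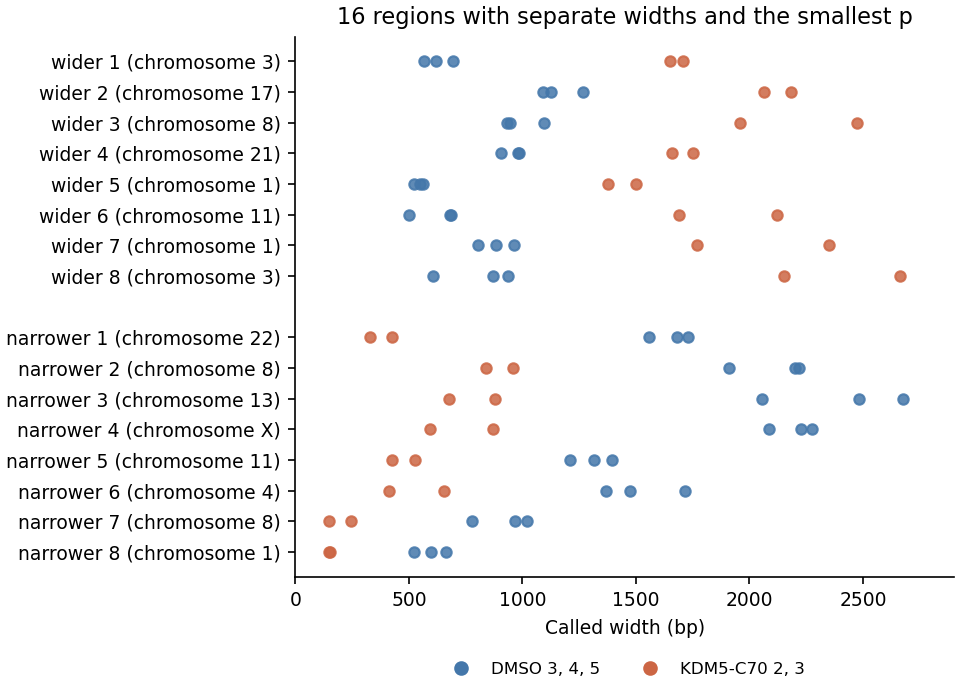
Called width (bp) in each of the 5 libraries for the 16 regions with separate widths and the smallest p, 8 wider and 8 narrower with KDM5-C70, each row 1 region and each point 1 library. The regions were chosen for this separation, and the limma adjusted p-values of all 16 lie between 0.0617 and 0.0677.

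The widest members overlapped between treatments. The region chr3:108787559-108792082 had a called width of 3823 bp in DMSO 3, 1476 bp in DMSO 4, 1881 bp in DMSO 5, 2478 bp in KDM5-C70 2 and 2125 bp in KDM5-C70 3. Its inner segments covered only 190 to 591 bp of that. DMSO 3 thus gave the extreme, and both KDM5-C70 values lay inside the DMSO range. The region chr16:33457548-33460545 had 2496, 1015, 2234, 2867 and 1966 bp in the same order. The other 3 were chrX:154561447-154563910, chr3:169772745-169776070 and chr2:106412453-106416162, with mean widths of 2083, 1977 and 1947 bp.

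A few members had long inner segments in every library although none of the 3 shorter lists held them. The region chr8:4850137-4851996 had inner lengths of 1247, 1258 and 1318 bp in DMSO 3, 4 and 5 and 1007 and 1124 bp in KDM5-C70 2 and 3, and lay 1411248 bp from the nearest region called in all 8. The region chr1:211564730-211566141 had an inner share of 89.0% over the 5 libraries, with 1110 bp called in all of them. Its widths were 1339, 1152, 1272, 1246 and 1405 bp. Others of this kind were chr13:112858974-112860903, chr3:107843480-107845290 and chr17:43860980-43862736, with mean inner lengths of 1160, 1040 and 983 bp.

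Members were scattered over the genome, and the rule kept them more than 2000 bp from regions called in all 8. The gap to the nearest of those had a median of 66488 bp (quartiles 23998 and 201428 bp), and it exceeded 100000 bp for 2127 members (39.8%) and was at most 10000 bp for 509 (9.53%). Under the same distance limit, regions also called in 1 or 2 shorter lists had a median gap of 44729 bp. Regions called in all 8, which had no such limit, lay a median of 38055 bp from the next such region. Whether members lie farther away than other scattered positions would was not tested. Width and inner share hardly changed with the gap. In the 1335 members nearest to a region called in all 8, the median widths in DMSO 3, 4 and 5 and KDM5-C70 2 and 3 were 688, 537, 534, 691 and 749 bp, and in the 1336 farthest 611, 535, 495, 640 and 746 bp. The median log2 change was 0.30 in the nearest and 0.38 in the farthest of these groups.

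The farthest member, chr5:27315961-27317125, lay 4214089 bp from a region called in all 8. It had widths of 933, 456 and 728 bp in DMSO 3, 4 and 5 and 839 and 948 bp in KDM5-C70 2 and 3. The next 2 were neighbours on chromosome 4, chr4:64356422-64358318 and chr4:64529506-64530872, the second of which had 646, 538 and 272 bp against 1033 and 954 bp. Few members lay side by side. The median gap from a member to the next was 133038 bp, and 352 (6.59%) lay within 10000 bp of another, in 167 runs of 2 and 6 runs of 3. The first run of 3 by position was chr1:192498939-192499974, chr1:192507662-192508852 and chr1:192513582-192514793, with mean widths of 735, 717 and 991 bp.

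The 2000 bp limit left out only 19 regions with the same calls. Just above it, the nearest 3 members were chr11:10955560-10956005 at 2060 bp, chr12:57075991-57077481 at 2262 bp and chr19:36394165-36394731 at 2464 bp, with mean widths of 353, 566 and 322 bp. Just below it were chr12:53603027-53604108 at 1958 bp, chr11:59324672-59326066 at 1729 bp and chr20:48731917-48732886 at 1617 bp, with mean widths of 507, 729 and 507 bp. A call of a shorter list lay within 2000 bp of 44 members.

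Chromosomes differed in how many members they held for their number of regions called in all 8. There were 38.9 members per 100 such regions overall. Chromosome 21 had 93.0 per 100 (132 members, 142 regions called in all 8), followed by chromosome 18 with 63.8 and chromosome 4 with 56.7. Chromosome 19 had the fewest, 19.8 per 100, with 174 members and 877 regions called in all 8, and chromosomes 22, 16 and 14 had 21.7, 21.9 and 23.6. Of the merged regions of any kind on chromosome 21, 15.6% were members, against 10.6% overall and 7.55% on chromosome 22. Per Mb between the first and last merged region of a chromosome, members numbered 3.42 on chromosome 21, 2.95 on chromosome 19 and 0.99 on chromosome 13, and 1.81 overall. On chromosome 19, 8.20% of the merged regions were members, so it was below the overall value by both shares and above it per Mb, with 14.9 regions per Mb called in all 8. Chromosome 21 was high by each of these counts.

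**Figure D5:**
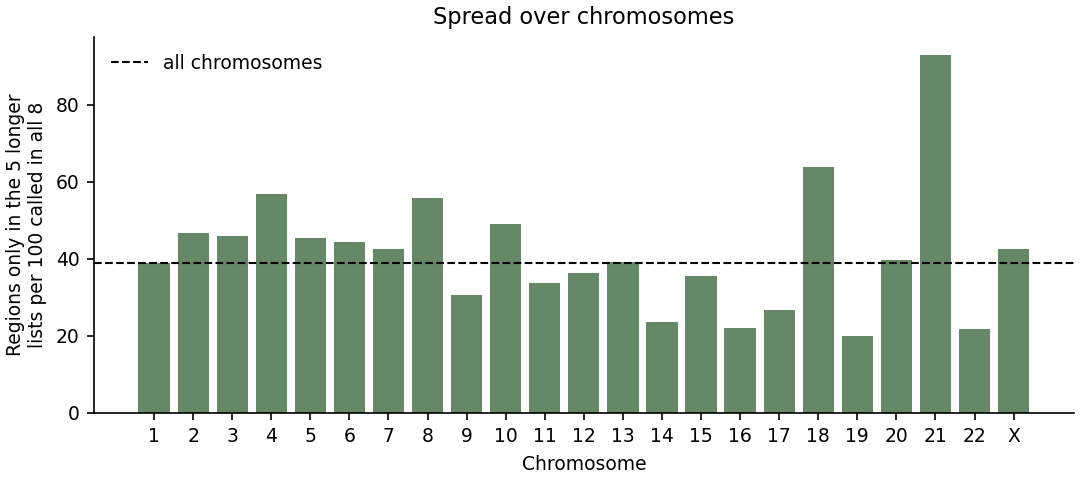
Number of regions called only in the 5 longer lists per 100 regions called in all 8, for each chromosome (bars); the dashed line is the value over all chromosomes, 38.9. Chromosome 21 reaches 93.0, and chromosome 19 is the lowest at 19.8.

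Members were also counted in windows of 5 Mb. The window from 35 to 40 Mb on chromosome 21 held 36 members, the most of the 599 windows, beside 26 regions called in all 8. The median window held 8 members. The window from 0 to 5 Mb on chromosome 6 followed with 32 members and 31 regions called in all 8. On chromosomes 10 and 8, the first 5 Mb held 27 and 22 members but only 11 and 8 regions called in all 8. Members outnumbered regions called in all 8 in 83 windows.

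The median change had the same direction on every chromosome. The median log2 change of members was above that of regions called in all 8 on all 23 chromosomes. It ran from 0.17 on chromosome 19 to 0.47 on chromosome 5, against 0.05 to 0.17 for regions called in all 8. The chromosomes share the same 5 libraries and are not replicates. In bp, the difference in median width over all chromosomes was 144 in members and 154 in regions called in all 8, which are wider. At 50% coverage the median log2 change was 0.12 in members and 0.14 over all regions tested. DMSO 3 had the highest inner share of the 5 libraries on all 23 chromosomes, and KDM5-C70 2 the lowest on 22. Both KDM5-C70 medians of width exceeded all 3 DMSO medians on 12 chromosomes, so on the other 11 the groups overlapped.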

How the data were processed

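H3K4me3 ChIP-seq was done on 8 libraries of MM1S cells. The submitters' processing notes name Trim Galore 0.40, Bowtie 1.1.2, MACS2 2.1.0, HOMER 4.8 and the build GRCh37. Settings and control library were not given in the sources used here. Regions were deposited as 1 list per library. In these the authors give the positions and blocks of each region, a display score (not used), a ratio of enrichment over background (fold) and its p-value and q-value as -log10. Blocks of 1 bp were left out as inner segments.

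Lists were joined at 1 bp of overlap on chromosomes 1 to 22 and X, and other chromosomes were left out. Called width is the number of called bases of a library in a merged region, and positions are counted from 1. The log2 of called bases was compared by limma 3.58.1 (R 4.3.3) in the 22537 regions called in the 5 longer lists, with a variance trend and no centring, 2-sided, and adjusted over all of them by the Benjamini-Hochberg method (threshold 0.05). Python 3.11.15 was used with pandas 2.3.3, numpy 2.4.6, matplotlib 3.10.9 and scipy 1.17.1. The joining of intervals and the limma step were tested on simulated data. The members and measures were chosen with earlier results of these data known. Named are the 8 wider and 8 narrower members with separate widths and the smallest p, the 5 widest, the 5 with the longest inner segments, the 3 farthest from a region called in all 8, the run with the most members within 10000 bp (the first by position of those tied), and 3 regions on each side of the 2000 bp limit. Alternatives covered the distance, list length, joining, coverage, scaling and each library left out. The files hold no read counts, so depth is unknown and no counting interval is given.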

Additional observations from a re-analysis of the deposited data

Results flagged for a closer look

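DMSO 3, 1 of the 5 libraries that define these regions, also had 7 deposited regions on chromosomes with Drosophila names, outside the human chromosomes analysed here. This was picked out as a signal in data that no comparison used. The other 7 lists had 0 such regions.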

How the results depend on the processing

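Keeping regions with a -log10 q-value from 5 upward left 71 members. Of these, 21 (29.6%, against 31.6% of all tested) were wider and 3 (4.23%, against 9.18%) narrower without overlap. Counting a library only where it covered 50% of the merged region left 980 members, with a difference in median width of 57.9 bp (144 bp as reported). Of these, 218 (22.2%, against 38.7% of all tested) were wider and 48 (4.90%, against 6.88%) narrower without overlap. By limma 8 were wider and 1 narrower (749 and 78 of all 14539 tested). Cutting the 5 longer lists to equal length (28195 regions) left 113 narrower without overlap (3.02%, against 6.74% of all tested). Centring gave 491 narrower without overlap (9.19%, against 20.0% of all tested) and 4 narrower by limma (31 of all 22537). Testing only regions with a single interval in each library gave 15 wider and 4 narrower by limma (252 and 29 of all 20830). The share of members with an inner segment, 2.30 percentage points higher with KDM5-C70, turned to -0.338 without DMSO 4, -1.54 without DMSO 5 and -6.17 without KDM5-C70 3. Leaving out each library in turn, with members chosen anew, gave 5365 to 6769 members, a width difference of 91.7 to 184 bp, an inner-share difference of -12.6 to -0.83 and a difference of -6.17 to 10.7 in members with an inner segment (percentage points), 1454 to 3033 wider and 277 to 1089 narrower without overlap, and 0 wider and 0 to 1 narrower by limma, the 1 being without KDM5-C70 2 (9 of all 23388 tested), where a lone library is assumed to vary like the others. The lowest and highest of these wider counts were 27.1% and 50.2% of the members, against 35.0% and 53.7% of all regions tested. The narrower ones were 5.16% and 19.7%, against 7.61% and 19.6%. Distances of 1000 and 5000 bp and joining within 1000 bp kept all 8 results within 1.5 times or within the DMSO SD. So did keeping only members with a base called in all 5, which was added after the data were seen. No variance trend gave 0 members by limma. No paired analysis was possible because the groups share only replicate number 3 among these 5 libraries. Causes were not tested.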
